A study of Rattus norvegicus with 22 samples.

Results

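The microglia markers examined here are 8 genes, Cx3cr1, P2ry12, Aif1, Itgam, Csf1r, Csf1, Trem2 and Tyrobp. They were read through every probe set of a rat genome expression array whose annotation carries only that symbol, which gave 14 probe sets among 31042 tested and 8 genes among 14217. The arrays were hybridized with RNA from rat spinal cord at level T10, and no member probe set passed the threshold in any of 11 comparisons. The series has 22 arrays in 8 groups. All contused cords had received a 10 g weight with a 2.5 mm tip, dropped onto the cord from 25 mm, and were taken 24 h later. Of these, 5 groups were also treated, with clenbuterol, a beta-2 adrenergic agonist (150 mg/kg, 20 min after injury, 2 arrays), X-rays (10 Gy, 20 min after injury, 3 arrays), tempol, a nitroxide that mimics superoxide dismutase (275 mg/kg, 20 min after injury, 3 arrays), buthionine sulfoximine or BSO, which blocks glutathione synthesis (150 mg/kg, 24 h before injury, 3 arrays), and tempol together with BSO at the same doses and times (3 arrays). The references were contusion without treatment (2 arrays), laminectomy without contusion (3 arrays) and normal cord (3 arrays). Strain, sex, age, any vehicle and the collection time after laminectomy are not given in the sources used here. Nor do the labels say that each array is a separate animal, and p-values therefore reflect only how far these arrays scatter, which may be technical.

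Microglia are the resident macrophages of the spinal cord, and their survival depends on the receptor kinase CSF1R and its ligands CSF1 and IL-34. In the intact cord of rodents they carry the fractalkine receptor CX3CR1, through which neurons restrain them, and the ADP receptor P2RY12, which steers their processes toward injured cells and is known in mouse to be lost as microglia become activated. TREM2 senses lipids and cell debris and signals through the adaptor TYROBP. Monocytes and macrophages that enter an injured cord express Itgam, Tyrobp, Aif1 and Csf1r too, and neutrophils express Itgam and Tyrobp, so these genes are not particular to microglia. Values from whole cord do not show the other members to be particular to microglia either. In a sample of whole cord, fewer cells of a type and less RNA per cell cannot be told apart.

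Values are the deposited signals on a linear scale. Differences and standard deviations (SD) were computed on log2 signal, where 1 unit is a doubling, and p-values come from limma, adjusted over all probe sets with a threshold of 0.05. Values after ± are standard errors in differences and SDs in group means. Where a gene had several probe sets, the one with the highest mean represented it. The arrays share a trimmed mean of 250, and their medians ran from 142.9 to 164.9. Laminectomy 2 and normal 1 stood apart: their median correlation with the remaining arrays was 0.667 and 0.685, while every other array had 0.725 to 0.785. Of 9 measured genes of neurons, astrocytes and oligodendrocytes 3 fell in all contused against all uninjured cord, beside 0.319% of all probe sets called in either direction. These were Nefl (-1.49 ± 0.29), Aqp4 (-1.23 ± 0.26) and Olig1 (-1.06 ± 0.22), and their calls were lost in 13, 22 and 25 of 29 alternatives. The summed signal of the 9 genes was 37908.7 to 90458.8 in contused and 73825.3 to 150606 in uninjured arrays, and its part in the members' values was not tested.

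Cx3cr1 (probe set 1369527_at), the fractalkine receptor, varied as much within groups as between them. Its signal was 364.1 and 756.7 after clenbuterol, 348.5, 630.4 and 329.7 after X-rays, 909.4, 834.3 and 247.1 after tempol, 843.5, 352.3 and 537.8 after BSO, and 204.7, 336.1 and 778.7 after tempol plus BSO. It was 136.2 and 488.5 in untreated contusion, 297.3, 252 and 539 after laminectomy, and 349.6, 228.1 and 579.3 in normal cord. The lowest array of all was a contusion array and the highest a tempol array, and 6 of 16 contused arrays lay above all 6 uninjured ones while 2 lay below them. All contused minus all uninjured cord differed by 0.30 ± 0.38 on the log2 scale (adjusted p = 0.831), with a 95% interval from -0.50 to 1.11. Untreated contusion had the lowest group mean, at 8.01 ± 1.30 log2 signal (n = 2), and laminectomy, the next in the order, had 8.42 ± 0.58 (n = 3).

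P2ry12 (1368728_at), the ADP receptor of resting microglia, was 164.8 and 185.7 after clenbuterol, 64.8, 136.4 and 165.9 after X-rays, 94.2, 123.6 and 216 after tempol, 219.5, 314.4 and 195.2 after BSO, and 282.7, 325.8 and 145.4 after tempol plus BSO. It was 232.8 and 180 in untreated contusion, 258.6, 393 and 251 after laminectomy, and 369.6, 123.2 and 14.9 in normal cord. The 3 laminectomy arrays lay above both contusion arrays, and the normal arrays spanned nearly the whole range. Contusion and laminectomy arrays did not overlap for 19.9% of all probe sets, in either direction. Laminectomy minus normal cord differed by 1.74 ± 0.77 (unadjusted p = 0.0365, adjusted p = 0.869), and it was 0.46 without normal 3, the array at 14.9. Contusion minus laminectomy differed by -0.52 ± 0.87 (adjusted p = 0.977). A second probe set of P2ry12 (1380822_at) gave 0.39 ± 0.59 and 0.02 ± 0.66 in the same comparisons. Neither probe set showed a called loss of P2ry12 at 24 h, and all contused minus all uninjured cord gave 0.14 ± 0.46 and -0.07 ± 0.35. The value of the first probe set was -0.50 without normal 3 and 0.76 without laminectomy 2 and normal 1, so no direction is given. Of 16 contused arrays 3 lay above the uninjured median (5 of 16 for the second probe set). That median depends on laminectomy 2 (393) and normal 1 (369.6), which stand apart and were the highest uninjured arrays for the first probe set.

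Aif1 (1369489_at) encodes IBA1, the actin-bundling protein by which microglia are usually stained. Its signal was 1021.6 and 222.6 after clenbuterol, 1559.4, 1316.2 and 951.3 after X-rays, 1568.8, 767.3 and 1339.8 after tempol, 1507.2, 1407.8 and 1571.7 after BSO, and 832.3, 1057.7 and 340.6 after tempol plus BSO. It was 1295.7 and 913.8 in untreated contusion, 2115.4, 100.5 and 1140.4 after laminectomy, and 688.2, 1303.6 and 1559 in normal cord. The highest and the lowest of the 22 arrays were both laminectomy arrays, and the lowest was laminectomy 2, which stands apart. All contused minus all uninjured cord differed by 0.19 ± 0.49 (adjusted p = 0.928), and by -0.46 without laminectomy 2. Contusion minus normal cord differed by -0.04 ± 0.92. The second probe set (1368558_s_at) went against the first across arrays, with a correlation of -0.28 over the 22 arrays, which share their scaling, and -0.55 for deviations from group means. Its highest value, 280.8, was in laminectomy 2, where the first probe set was lowest. Its group mean was 7.11 ± 0.14 log2 signal in contusion (n = 2) and 6.07 ± 1.46 in normal cord (n = 3).

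Itgam (1388046_at) encodes CD11b, the alpha chain of the complement receptor 3 integrin of myeloid cells. Its signal was 26.4 and 131.9 after clenbuterol, 99.2, 95.7 and 214.7 after X-rays, 379.3, 77.7 and 50.6 after tempol, 80.3, 48.1 and 205.5 after BSO, and 39.2, 109.1 and 187.5 after tempol plus BSO. It was 98.3 and 83.7 in untreated contusion, 109.8, 85.2 and 64.2 after laminectomy, and 55.2, 44.8 and 37 in normal cord. Both contusion arrays and all 3 laminectomy arrays lay above all 3 normal arrays. Over all probe sets the arrays did not overlap for 22.2% in contusion minus normal and 8.57% in laminectomy minus normal, in either direction. The probe set is dim, with a median of 84.45 beside array medians of 142.9 to 164.9, and no detection calls were used. Contusion minus normal cord differed by 1.01 ± 0.85 (adjusted p = 0.914) and laminectomy minus normal by 0.90 ± 0.76 (adjusted p = 0.972), and these comparisons share the normal arrays. Contusion minus laminectomy differed by 0.10 ± 0.85, and all contused minus all uninjured cord by 0.60 ± 0.45 (adjusted p = 0.675).

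Csf1r (1388784_at), the receptor on which microglia depend, was lowest in untreated contusion and highest after laminectomy by group mean. Its signal was 748.8 and 917.6 after clenbuterol, 854.3, 517.8 and 569.7 after X-rays, 898.2, 1152.7 and 531.9 after tempol, 1430.3, 1221.7 and 775.4 after BSO, and 607.7, 765.9 and 2114.8 after tempol plus BSO. It was 298.6 and 1050 in untreated contusion, 1770.8, 1113.2 and 1408.8 after laminectomy, and 643, 1821.8 and 1357.5 in normal cord. Of the 16 contused arrays, 2 lay above the median of the 6 uninjured arrays (1383) and 5 lay below all 6. The share of all probe sets with such an order was not counted. Contusion minus laminectomy differed by -1.33 ± 0.63 (unadjusted p = 0.0487, adjusted p = 0.925). The arrays did not overlap, as was the case for 19.9% of all probe sets in either direction. Leaving out single arrays moved this difference between -2.23 and -0.42, the smaller size being without the contusion array at 298.6. All contused minus all uninjured cord differed by -0.68 ± 0.33 (unadjusted p = 0.0558, adjusted p = 0.499), with a 95% interval from -1.37 to 0.02. Of 30 alternatives 27 moved this value, all negative, from -0.98 to -0.52, and none passed.

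Csf1 encodes the ligand of that receptor and has 4 probe sets. The representative (1380582_at) was 20474.5 and 12440.2 after clenbuterol, 12503.7, 15269.2 and 9936.1 after X-rays, 8892.5, 8089.1 and 16427.9 after tempol, 6890, 12569.1 and 13559.8 after BSO, and 16735.1, 14294.5 and 7540.1 after tempol plus BSO. It was 9835.8 and 13506.7 in untreated contusion, 8160.2, 21415.4 and 14148.6 after laminectomy, and 17344.8, 12156.1 and 13337.4 in normal cord. All groups overlapped, and all contused minus all uninjured cord differed by -0.19 ± 0.28 (adjusted p = 0.855). The other probe sets gave -0.29 ± 0.47 (1369354_at), 1.02 ± 0.54 (1379631_at) and 0.33 ± 0.26 (1380583_s_at) in the same comparison, so the probe sets of Csf1 did not share a sign, and no direction is given for the gene. Across the 22 arrays their 6 pairwise correlations ran from -0.06 to 0.54. Probe set 1379631_at was lowest in normal 3, at 7.1. In 1380583_s_at both clenbuterol arrays (3626.2 and 2333.6) and all 3 X-ray arrays (2471.1 to 3247.3) exceeded both contusion arrays (1828.2 and 1714.8). They also lay above every uninjured array (at most 2181.5), as did tempol 1 (3084.6). Over all probe sets 35.5% and 24.2% did not overlap in these treatment comparisons, in either direction. Its F test over the 5 treatments did not pass (adjusted p = 0.909).

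Tyrobp (1374730_at), the adaptor through which TREM2 and other myeloid receptors signal, had the smallest unadjusted p-value after injury among the 8 representatives, and after Trem2 the smallest spread within groups. Its signal was 893.7 and 694.7 after clenbuterol, 877.8, 1054.3 and 901.1 after X-rays, 567.4, 565.6 and 929.9 after tempol, 818.1, 655 and 872.1 after BSO, and 684.3, 619.5 and 1042.9 after tempol plus BSO. It was 1030.6 and 644.7 in untreated contusion, 924, 386.2 and 519.3 after laminectomy, and 429.1, 625.8 and 293.4 in normal cord. All 16 contused arrays lay above the uninjured median (474.2), and 4 of the 6 uninjured arrays lay below every contused array. How many of all probe sets have such an order was not counted. All contused minus all uninjured cord differed by 0.67 ± 0.25, a 1.59-fold difference with a 95% interval from 1.11-fold to 2.30-fold (unadjusted p = 0.0151). Adjusted over all probe sets it did not pass (adjusted p = 0.333). Both untreated contusion arrays lay above all 3 normal arrays (0.93 ± 0.48, adjusted p = 0.77). In that comparison the arrays did not overlap for 22.2% of all probe sets, in either direction. Of 30 alternatives 27 moved the difference between all contused and all uninjured cord, all positive, from 0.53 to 0.85, and adjusted p ran from 0.195 to 0.75. Neutrophil markers, whose cells express Tyrobp too, had summed signals of 1469 to 5329.5 in contused and 648.9 to 1501.7 in uninjured arrays over 8 measured genes of 13, and monocyte and macrophage markers 9463 to 18926.2 and 5283 to 15339.2 over 14 of 17. Their part in the Tyrobp values was not tested.

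Trem2, the lipid receptor, has 2 probe sets that gave different pictures. The representative (1382513_at) was 343.5 and 239.3 after clenbuterol, 288.1, 300.5 and 217.6 after X-rays, 260.3, 220.9 and 316 after tempol, 245.3, 212.7 and 277.7 after BSO, and 257, 245.8 and 224.7 after tempol plus BSO. It was 296.4 and 155.8 in untreated contusion, 323.1, 161.1 and 211.6 after laminectomy, and 186, 236.1 and 372.5 in normal cord. Its within-group SD of 0.37 was the lowest of the 14 probe sets, and all groups overlapped. All contused minus all uninjured cord differed by 0.08 ± 0.24 (adjusted p = 0.937), with a 95% interval from 0.75-fold to 1.50-fold.

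The second Trem2 probe set (1392759_at) was 20.1 and 160.6 after clenbuterol, 25.9, 20.6 and 58.6 after X-rays, 50.1, 37.8 and 145.3 after tempol, 21.9, 22 and 16.5 after BSO, and 19.9, 31.7 and 175.4 after tempol plus BSO. It was 209.4 and 215.9 in untreated contusion, 27.4, 34.8 and 28.8 after laminectomy, and 129.7, 35.1 and 182.6 in normal cord. Both contusion arrays lay above the other 20, of which the highest read 182.6, as was the case for 0.213% of all probe sets. Contusion minus laminectomy differed by 2.82 ± 0.93 (unadjusted p = 0.00679, adjusted p = 0.916) and BSO minus contusion by -3.41 ± 0.93 (unadjusted p = 0.0016, adjusted p = 1). Neither passed, and both rest on the same 2 contusion arrays. This probe set is dim, with a median of 34.95 over all arrays beside array medians of 142.9 to 164.9. No detection calls were used, so whether its low readings lie above background is not known. The representative gave -0.05 ± 0.45 and 0.18 ± 0.45 in these comparisons, and the probe sets correlated at -0.13 over the 22 arrays.

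**Figure D1:**
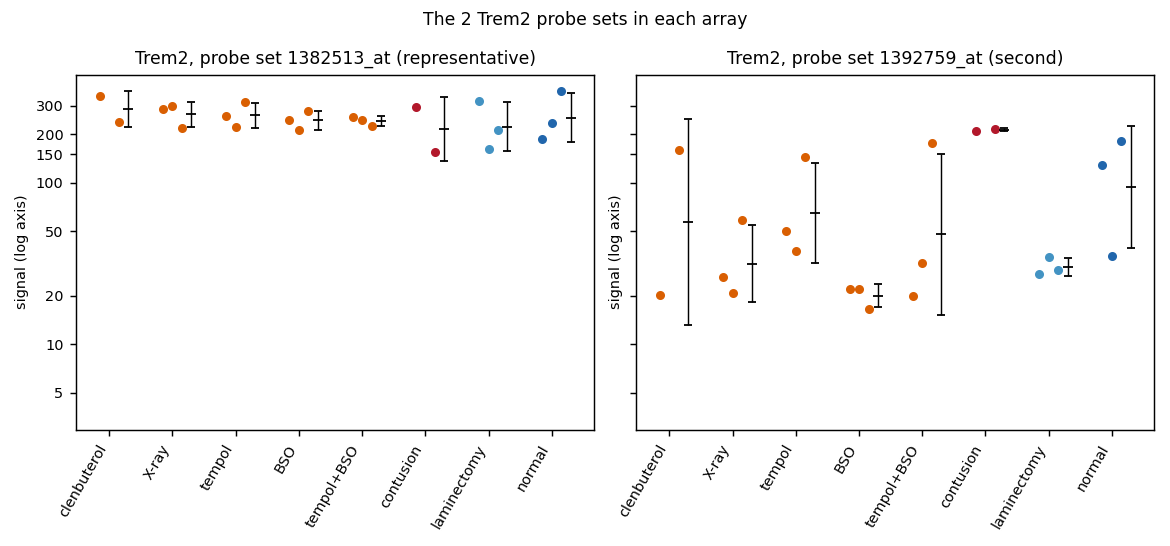
Signal of the 2 Trem2 probe sets (log axis) in each of the 22 arrays, by group; points are arrays and black bars the mean ± SD on the log2 scale. The second probe set read 209.4 and 215.9 in the contusion arrays and at most 182.6 elsewhere, while the representative overlapped between all groups. The second probe set is dim, with a median of 34.95 over all arrays, and no detection calls were used.

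**Figure D2:**
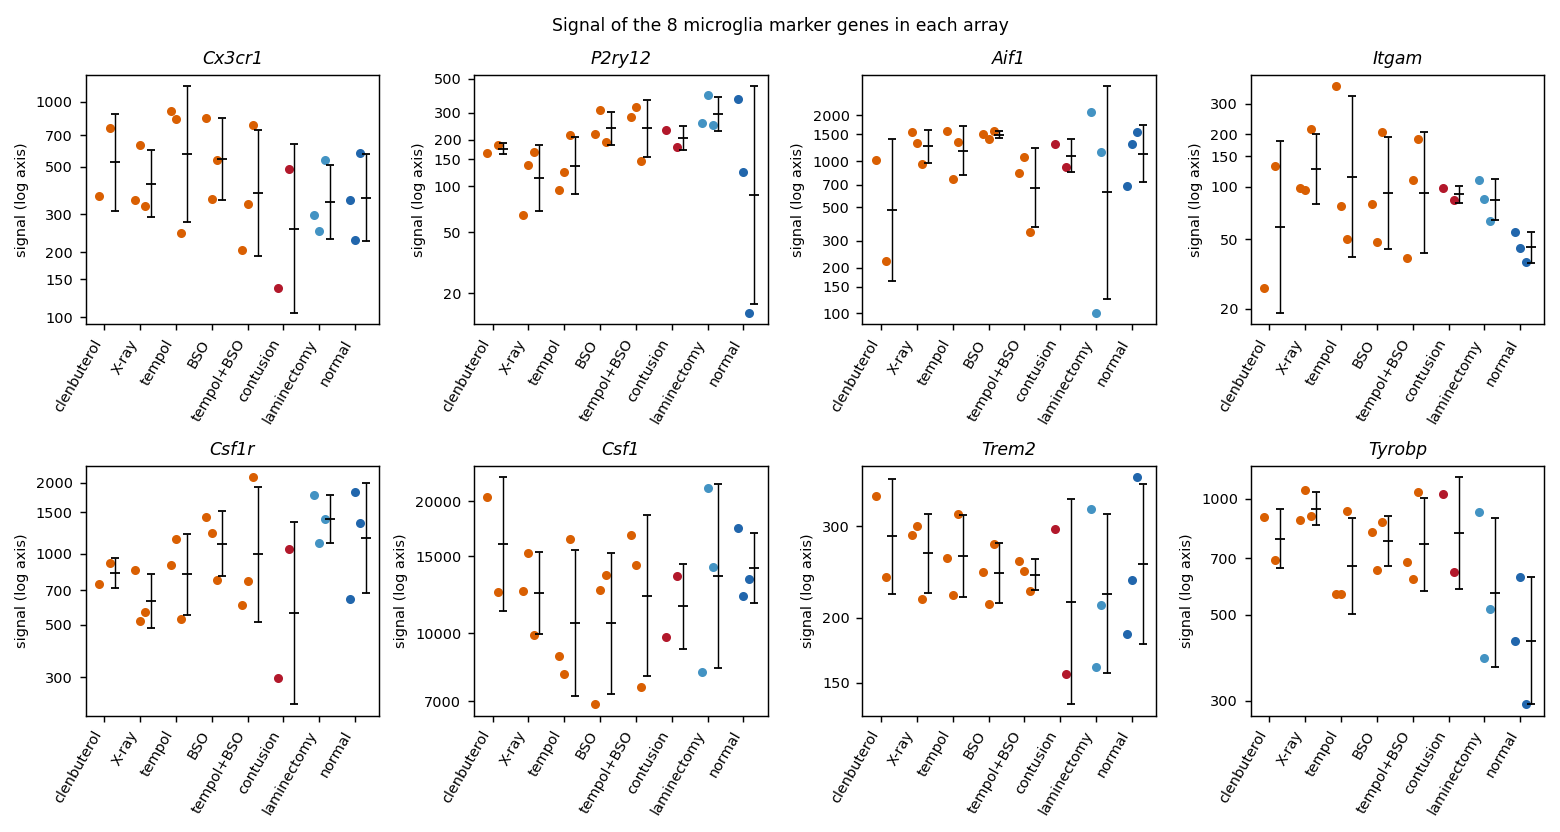
Signal of the representative probe set of each gene (log axis) in each array; orange marks treated contusion, red untreated contusion and blue the uninjured groups, and black bars are the mean ± SD on the log2 scale. All 16 contused arrays lay above the uninjured median of Tyrobp (474.2), and 5 of 16 contused arrays lay below all 6 uninjured arrays for Csf1r. Neither gene passed the threshold, and the share of all probe sets with such an order was not counted.

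Across the injury comparisons the 8 representatives had differences of both signs, and none passed. Of these comparisons, all contused minus all uninjured cord also holds the 5 treated groups. In all contused minus all uninjured cord 0 of 14 member probe sets passed by limma, beside 0.319% of all probe sets tested, and 1 of 14, that of Tyrobp, had an unadjusted p under 0.05, beside 10.4% of all. The median over the 8 genes was 0.17, with 6 higher and 2 lower, and that over all probe sets was 0.00. In contusion minus laminectomy 0 passed (background 0.00322%) and 2 had an unadjusted p under 0.05 (background 5.38%), with a median of -0.14 beside 0.02. In contusion minus normal 0 passed (background 0.0483%) and 0 had an unadjusted p under 0.05 (background 6.65%), with a median of -0.14 beside 0.01. In laminectomy minus normal 0 passed (background 0.00644%) and 1 had an unadjusted p under 0.05 (background 5.59%), with a median of 0.10 beside -0.01. The arrays did not overlap for 2 member probe sets higher and 3 lower in contusion minus laminectomy (background 19.9% in either direction), 3 higher and 0 lower in contusion minus normal (22.2%), 1 higher and 1 lower in laminectomy minus normal (8.57%), and none in all contused minus all uninjured (0.129%). These comparisons share arrays. In contusion minus laminectomy the 95% intervals of Cx3cr1 (-1.93 to 1.11), P2ry12 (-2.34 to 1.29), Aif1 (-1.13 to 2.73) and Itgam (-1.68 to 1.89) held both a doubling and a halving, so neither was excluded for these genes. What size of change could pass the threshold for each member was not determined.

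**Figure D3:**
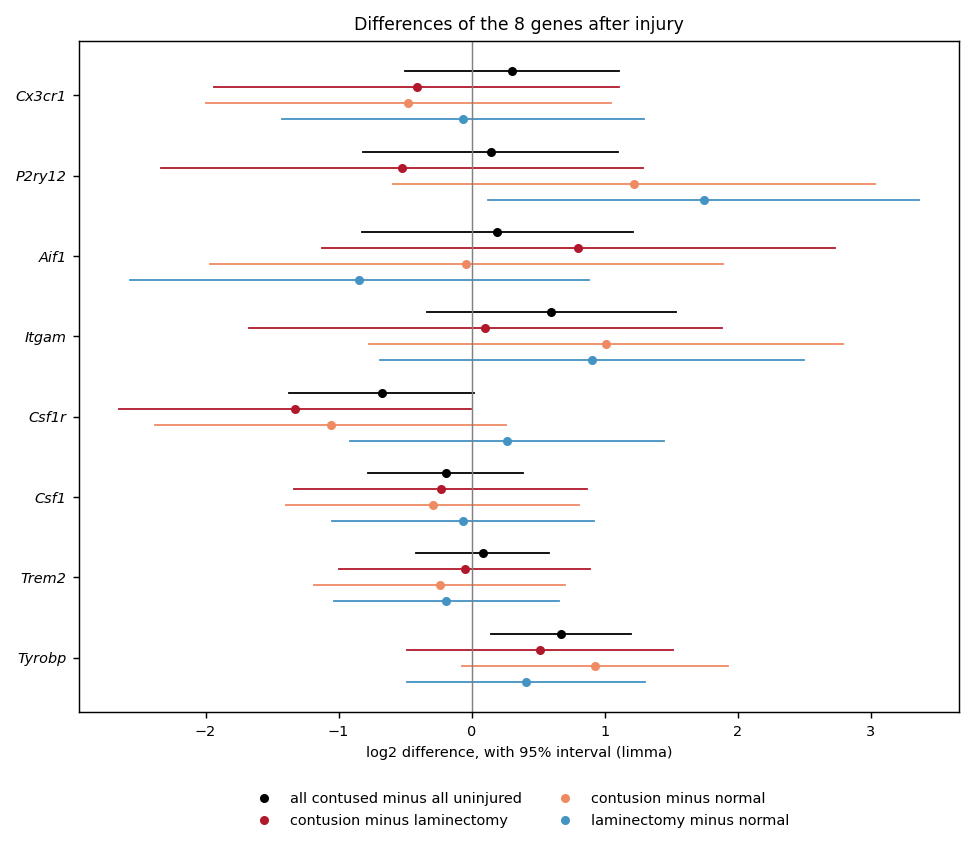
Log2 difference with its 95% interval (limma) for the representative probe set of each gene in the injury comparisons. The intervals for all contused minus all uninjured cord are the narrowest, and that of Tyrobp (0.67, from 0.15 to 1.20) lies above 0 before adjustment.

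The order of the 8 group means differed from gene to gene. Clenbuterol was highest for Csf1 and Trem2, X-rays for Tyrobp and Itgam, tempol for Cx3cr1, BSO for Aif1, and laminectomy for P2ry12 and Csf1r. Normal cord was lowest for P2ry12, Itgam and Tyrobp, untreated contusion for Cx3cr1, Csf1r and Trem2, clenbuterol for Aif1 and BSO for Csf1. The distance from the highest to the lowest group mean ran from 0.42 for Trem2 to 1.74 for P2ry12. For none of the 8 representatives did 2 neighbours in the order lie further apart than the within-group SD, which ran from 0.37 for Trem2 and 0.42 for Tyrobp to 1.01 for P2ry12 and 1.08 for Aif1, beside a median of 0.86 over all probe sets. Among the other probe sets, 1 gap each exceeded the SD in Aif1 1368558_s_at (1.05, SD 1.01), Csf1 1380583_s_at (0.66, SD 0.44) and Trem2 1392759_at (1.18, SD 1.09).

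No member probe set passed against untreated contusion after clenbuterol (background 0.00322%), X-rays, tempol, BSO or tempol plus BSO (background 0% for each of these), nor in the F test over all 5 treatments (background 0%), where the lowest adjusted p was 0.849. An unadjusted p under 0.05 was found for 1 member probe set each after clenbuterol (background 5.36%), X-rays (4.81%), BSO (3.46%) and tempol plus BSO (3.98%), for 0 after tempol (2.82%) and for 1 in the F test (5.6%). For X-rays, BSO, tempol plus BSO and the F test this was the second Trem2 probe set. For clenbuterol it was the second Aif1 probe set (-2.08 ± 0.95, adjusted p = 0.929), which read 10.1 in the first clenbuterol array and 105.3 in the other, against 147.7 and 129 in untreated contusion.

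Cx3cr1 was higher by mean in each treated group than in untreated contusion, by 1.02 ± 0.80 after clenbuterol, 0.69 ± 0.73 after X-rays, 1.15 ± 0.73 after tempol, 1.07 ± 0.73 after BSO and 0.55 ± 0.73 after tempol plus BSO, with adjusted p of at least 0.999. These values share the same 2 contusion arrays and rest on contusion 1, which read 136.2, the lowest of the series. Without it they were 0.10 after clenbuterol, -0.23 after X-rays, 0.23 after tempol, 0.15 after BSO and -0.37 after tempol plus BSO. Csf1r was higher by mean in all 5 as well, from 0.17 ± 0.63 after X-rays to 0.98 ± 0.63 after BSO, and contusion 1, at 298.6, was again the lowest array of the series. Without it Csf1r differed by -0.34 after clenbuterol, -0.73 after X-rays, -0.36 after tempol, 0.08 after BSO and -0.08 after tempol plus BSO, so no direction is given for either gene. Tyrobp differed by -0.29 ± 0.48 to 0.21 ± 0.48, and Trem2 by 0.17 ± 0.45 to 0.42 ± 0.49. Aif1 differed by -1.19 ± 1.01 after clenbuterol, a value that was -0.09 without clenbuterol 2, the array at 222.6, and -2.29 without clenbuterol 1. P2ry12 differed by -0.85 ± 0.87 after X-rays, where all 3 X-ray arrays, at 64.8 to 165.9, lay below both contusion arrays. Member probe sets without overlap numbered 4 after clenbuterol (background 35.5%), 3 after X-rays (24.2%), 2 after tempol (16.2%), 2 after BSO (16.8%) and 2 after tempol plus BSO (18%).

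The effect of tempol could be compared with and without BSO. The difference of the differences, tempol plus BSO minus BSO less tempol minus contusion, passed for 0 of 14 member probe sets (background 0%), and 1 had an unadjusted p under 0.05 (background 3.44%). It was -1.68 ± 0.98 for Cx3cr1 (unadjusted p = 0.102), -1.27 ± 1.24 for Aif1, 0.26 ± 0.64 for Tyrobp and -0.30 ± 0.60 for the representative of Trem2. The value of Cx3cr1 was -0.75 without contusion 1 and -2.60 without contusion 2, and that of Aif1 was -0.17 with the mean of its probe sets and -0.78 without the third array of tempol plus BSO. The second Trem2 probe set had 2.98 ± 1.24 (unadjusted p = 0.0273, adjusted p = 1), which contains the same 2 contusion arrays. The 95% intervals, from -3.72 to 0.37 for Cx3cr1 and from -3.86 to 1.32 for Aif1, leave wide room in both cases.

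**Figure D4:**
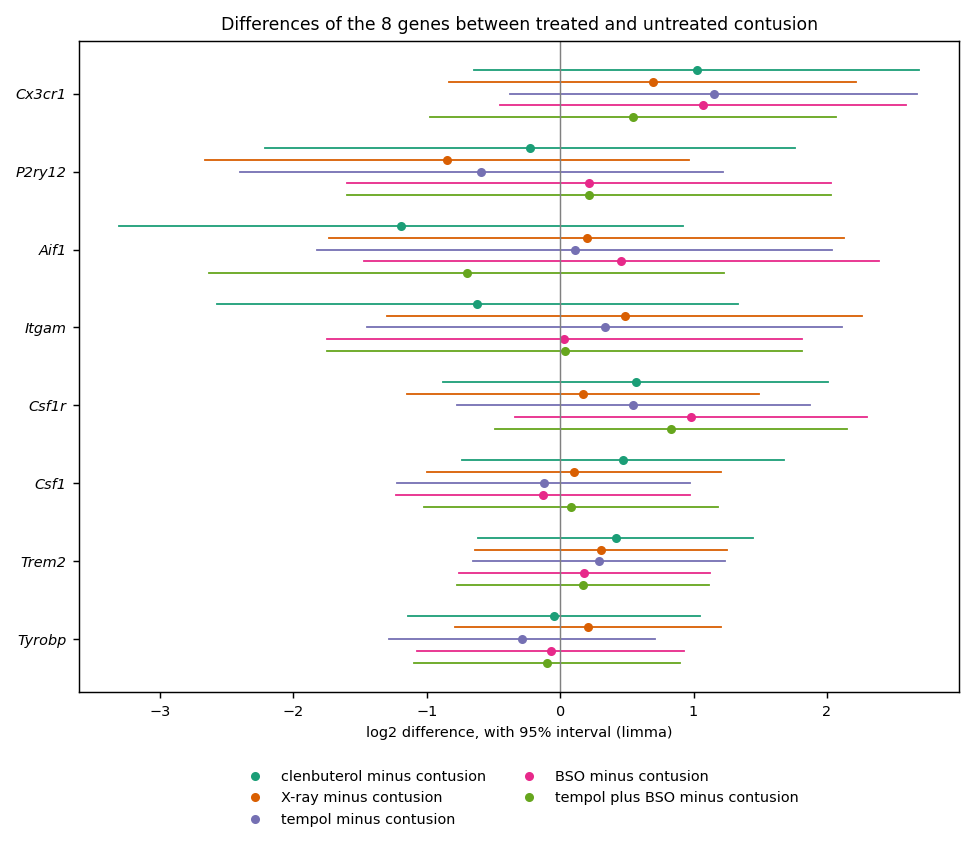
Log2 difference with its 95% interval (limma) of each treated group against untreated contusion, for the representative probe set of each gene. Every interval includes 0; Cx3cr1 (0.55 to 1.15) and Csf1r (0.17 to 0.98) have all 5 estimates above 0, but without contusion 1 the values ran from -0.37 to 0.23 for Cx3cr1 and from -0.73 to 0.08 for Csf1r.

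Correlations between the members were of both signs, with a median near 0. Over the 28 pairs of representatives the correlation of log2 signal across 22 arrays ran from -0.52 (Csf1 with Itgam) to 0.56 (Aif1 with Trem2), with a median of -0.09 and 9 pairs above 0. For deviations from group means it ran from -0.58 to 0.71, with a median of -0.14. Cx3cr1 and Csf1r correlated at 0.43, and Trem2 and its adaptor Tyrobp at 0.32. All arrays share the scaling, and the values are descriptions. Probe sets of 1 gene did not correlate closely either, with 0.21 for P2ry12, -0.28 for Aif1 and -0.13 for Trem2.

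The genes most like each member across the 22 arrays, out of 12050 others with a mean log2 signal over 6, included no other member among the 3 closest. Tyrobp lay closest to Mtfr1 (r = 0.83), Ddx39a (0.81) and Ccl7, a monocyte attractant (0.79, and 0.53 for deviations from group means). Csf1r lay closest to Cd93 (0.73), Foxj1 (0.69) and Tcf7l1 (0.67). P2ry12 lay closest to Tspan12 (0.86), Pcna (0.84) and Serpini1 (0.82), and Csf1 to Laptm4a (0.90), Rbpj (0.89) and Prnp (0.87). For Cx3cr1, Aif1, Itgam and Trem2 the highest correlations were 0.75 with Lrguk, 0.80 with Tnmd, 0.74 with Pmm1 and 0.77 with Ankrd17. All these values were picked as the highest of 12050 over arrays that share their scaling. How high such maxima run for other genes was not counted, so no relation is read from them.

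In all contused against all uninjured cord no gene passed in 5 further lists of microglia identity and of the members' pathways. In the lists of disease-associated microglia, monocytes, macrophages and neutrophils 9 genes rose. Of 22 measured genes of a further list of homeostatic microglia genes 0 passed (9 higher, 13 lower, median -0.24), with Mertk, a receptor for dying cells, at 1.05 ± 0.43, the protease inhibitor gene Cst3 at -0.73 ± 0.27, the ATP-degrading ectoenzyme gene Entpd1 at 0.71 ± 0.40 and Bin1 at -0.52 ± 0.48. Of 14 genes around the CSF1 receptor 0 passed (median -0.02), with the transcription factor gene Runx1 at 0.98 ± 0.27 (adjusted p = 0.16) and the adaptor gene Grb2 at -0.72 ± 0.33. Of 15 around TREM2 and TYROBP 0 passed (11 higher, 4 lower, median 0.31), with the lipid phosphatase gene Inpp5d at 0.87 ± 0.31, the TREM2 ligand gene Apoe at -0.75 ± 0.32 and the fungal glucan receptor gene Clec7a at 0.74 ± 0.33. Of 11 around fractalkine and CD11b 0 passed (median -0.04), with the fractalkine gene Cx3cl1, which neurons express, at -1.08 ± 0.35 (adjusted p = 0.248), the complement gene C3 at -0.78 ± 0.37 and the integrin activator gene Fermt3 at 0.60 ± 0.36. Of 7 purinergic genes 0 passed (median 0.02), with P2ry2 at 1.02 ± 0.41. The median over all probe sets was 0.00 in this comparison.

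Genes known to rise in microglia around disease lesions included 4 that passed of 21 measured, all higher (median 0.47), beside 0.319% of all probe sets called in this comparison in either direction. Whether microglia or other cells of the cord held these transcripts was not tested. The chemokine gene Ccl6 rose by 3.17 ± 0.32 (adjusted p = 5.69e-05), Ccl3, which draws monocytes, by 2.22 ± 0.37 (adjusted p = 0.00836), and the lysosomal glycoprotein gene Gpnmb by 1.82 ± 0.29 (adjusted p = 0.00585). These 3 passed in all 29 alternatives. The matrix phosphoprotein gene Spp1 rose by 1.19 ± 0.24 (adjusted p = 0.0365) and lost its call in 18 of the 29, among them the fits without any one laminectomy, contusion or normal array, with adjusted p up to 0.131. In untreated contusion minus normal cord Ccl6 (4.81 ± 0.62, adjusted p = 0.00203), Gpnmb (4.01 ± 0.54, adjusted p = 0.00295) and Spp1 (2.58 ± 0.46, adjusted p = 0.039) rose too, Ccl6 no longer without contusion 2, Gpnmb without contusion 1 and Spp1 without any one of the 5 arrays compared, and none of the 3 passed in a fit of these groups only. In contusion minus laminectomy no gene of any list passed, and the genes of disease-associated microglia had 8 values above 0 and 13 below (median -0.23). In laminectomy minus normal cord 0 passed too, with 17 above 0 and 4 below (median 0.76). Of 14 monocyte and macrophage markers 2 passed in all contused minus all uninjured cord (median 0.73), where 0.319% of all probe sets were called. They were the arginase gene Arg1 at 1.82 ± 0.28 (adjusted p = 0.00427, kept in all 29) and Cd14, the co-receptor for bacterial lipopolysaccharide, at 1.40 ± 0.25 (adjusted p = 0.0146). The call of Cd14 was lost without normal 1, alone or with laminectomy 2 (adjusted p up to 0.108). Of 8 neutrophil markers 3 passed in the same comparison (median 0.96), with S100a9 at 2.70 ± 0.40 (adjusted p = 0.00328, kept in all 29) as the most stable. The other two, S100a8 (2.00 ± 0.39) and the decoy receptor gene Il1r2 (3.12 ± 0.61), both had adjusted p = 0.0318. S100a8 lost its call in 12 of the 29, with adjusted p up to 0.118, and Il1r2 in 9, with adjusted p up to 0.0973, laminectomy 1, laminectomy 2 and contusion 2 being among the arrays whose omission ended either call. Of 10 lymphocyte markers 0 passed in this comparison (median -0.02). Whether any of these lists differed from the microglia markers was not tested, and Csf1, Csf1r, P2ry12, Tyrobp and Trem2 are also counted in the lists around them.

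**Figure D5:**
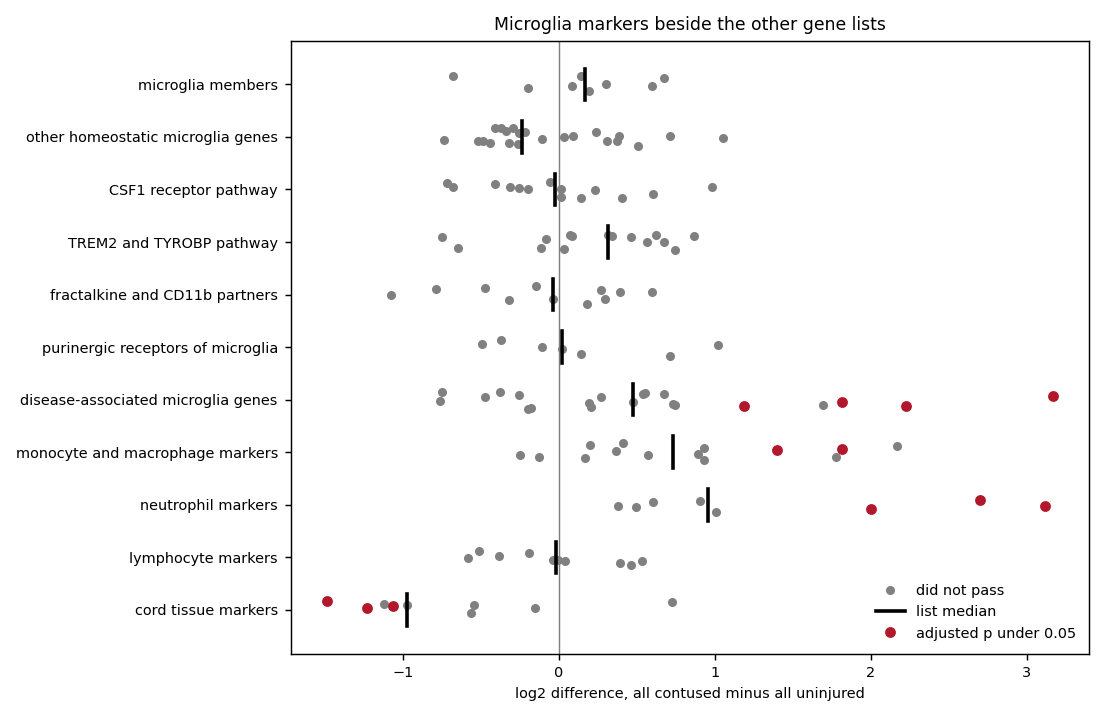
Log2 difference of each measured gene in all contused minus all uninjured cord, by gene list; red points passed the threshold, grey points did not, and black bars are list medians. The 8 microglia markers lie between -0.68 and 0.67 with none past the threshold, and the genes that passed belong to the lists of disease-associated microglia, monocytes, neutrophils and cord tissue.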

How the data were processed

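The values are intensities that the authors deposited as 1 table of 22 arrays, on a linear scale. RMA is named per the submitters' processing notes, but the deposited intensities are neither logarithmic nor quantile normalized, and each array has the same mean once 2% is trimmed at each end. No detection calls were used here. Of 31099 probe sets 57 controls, which hold the only 2 empty cells, were left out. Of the rest 20826 carry 1 symbol, 436 several and 9780 none, and no gene was named from a probe set with several.

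The log2 of the signal, with no offset, entered 1 limma 3.58.1 fit in R 4.3.3 with 8 group means and eBayes (14 residual and 4.71 prior degrees of freedom). Benjamini-Hochberg adjustment ran over all 31042 probe sets. All contused minus all uninjured gives each group mean the same weight within its side. The fit was also run on simulated data with independent normal noise and no arrays that stood apart. That run cannot show how the fit behaves with arrays such as laminectomy 2 and normal 1. Members, gene lists and alternatives were chosen with earlier results of these data known. Named beside the members were list genes that passed, otherwise up to 4 per list with the largest difference in all contused minus all uninjured cord, and the 3 genes closest to each member by correlation. The number of arrays limits the precision. Quantile normalization, log2 of signal plus 32, a filter on the dimmest 30% of probe sets, trend and robust eBayes, a fit of only the compared groups, replicate numbers as blocks, array weights, averaging a gene's probe sets, and leaving out laminectomy 2 with normal 1 or each array singly were tried as alternatives.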

Additional observations from a re-analysis of the deposited data

How the results depend on the processing

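The count of member probe sets past the threshold was 0 in all 176 combinations of a comparison and an alternative, the lowest adjusted p being 0.195. With the replicate number as a block it was 0 in every comparison too. Same-numbered arrays did not deviate together (mean correlation of -0.0021 over 71 pairs, 7 of them over 0.1), and 10 of 22 arrays were closer to their own number than to other numbers. No pairing by number was visible, which does not show that none exists. Of 1296 recomputed differences of single members 0 passed, 75 moved by over 1 standard error and 106 took the other sign. As no member was called, these signs are not counted as directions. In all contused minus all uninjured cord the sign turned for Aif1 with array weights (-0.18) and without laminectomy 2 (-0.46), for P2ry12 with log2 of signal plus 32 (-0.03) and without normal 3 (-0.50), for Csf1 with the mean of its probe sets (0.22), for Trem2 without laminectomy 2 (-0.03) or normal 1 (-0.03), and without laminectomy 2 and normal 1 together for Aif1 (-0.64), Csf1 (0.05) and Trem2 (-0.15). It held for Cx3cr1, Itgam, Csf1r and Tyrobp in the 27 of 30 alternatives that moved their values; a filter on dim probe sets, another eBayes setting and the mean over probe sets, of which these genes have 1 each, cannot move them. Groups of 2 and 3 arrays limit what could be called. A contusion group left with 1 array was assumed to vary like the others.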
